A study of Caenorhabditis elegans with 2 samples.

Results

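NHR-11 binding was mapped by chromatin immunoprecipitation and sequencing (ChIP-seq) in whole L3 larvae of *Caenorhabditis elegans*, and the account below covers the autosomal peaks that lay at the starts of protein-coding genes. A peak was taken where its summit, the position of highest signal, fell from 1000 bases upstream to 500 bases downstream of an annotated 5′ end on a chromosome other than X. That held for 435 of 1030 reproducible peaks (42.2%), which is 435 of the 820 autosomal ones (53.0%, 95% Wilson interval 49.6 to 56.4). The rule used position alone. The other 385 autosomal peaks lay away from gene starts and 210 peaks lay on X. Windows of this size cover 27.4% of the autosomal bases.

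All larvae belonged to strain OP305, which carries the ed3 allele of unc-119 on chromosome III and the transgene wgIs305 with an eGFP-tagged nhr-11. The sexes were pooled, the hours of growth within the L3 stage were not stated, and the labels describe 2 biological replicates of 1 group. There was thus no second condition, and tests compare places in the genome, not treatments. The labels give nhr-11 as the antibody in 1 place and eGFP-nhr-11 as its target in another, which leaves unclear whether the tag or the receptor was recognised, and they do not say which regulatory sequence drives the transgene. With no read counts in the lists the depth is unknown, and a peak's signal value, which is the authors' own with no stated scale, serves here to order peaks within a list. Binding in whole larvae is a mixture over all tissues, and binding in few cells cannot be told apart from weak binding in many.

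Nuclear hormone receptors are transcription factors with a zinc finger domain that binds DNA and a domain that can bind a small lipophilic ligand. The worm has a far larger family of them than mammals do. Many members of the family in animals bind short cores such as AGGTCA. In the worm, the transcripts of most genes lose their first stretch when a spliced leader is joined to them, so that an annotated 5′ end often lies downstream of where transcription begins, and neighbouring genes on opposite strands can share one upstream region.

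The DNA under the strongest summits is shown first, because the results on sequence below turn on a few short words in it. Each line is a stretch of ce11 with 50 bases to each side of a summit, on the strand of the nearest gene, taken from the RefSeq genome of the same build. The 8 were the strongest members that could be shown, and none overlapped an annotated exon. They lie at chrII:10563528-10563628 for cdc-48.1 (minus strand), chrIII:3867522-3867622 for rpl-3 (plus), chrIII:10759202-10759302 for tasp-1 (plus), chrII:8561380-8561480 for iff-2 (minus), chrV:9546944-9547044 for his-37 (plus), chrIII:7854631-7854731 for rpl-35 (plus), chrIV:17278515-17278615 for hsp-1 (plus) and chrIV:4750014-4750114 for Y17G9B.5 (plus). Capitals mark 10 words on either strand. Counted in all peaks below are the GA repeat GAGAGA, the CG repeat GCGCGC, the E-box CACGTG, the GC box GGGCGG and the overlapping words AGACGC with its neighbour ACGCAG. Chosen after these sequences had been read were the word AGTGTA, the word ATACAC, the word ACACTC, which overlaps the first, and the word AGCGCG.
cdc-48.1: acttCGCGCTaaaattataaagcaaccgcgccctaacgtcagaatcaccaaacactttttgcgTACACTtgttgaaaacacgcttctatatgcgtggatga
rpl-3: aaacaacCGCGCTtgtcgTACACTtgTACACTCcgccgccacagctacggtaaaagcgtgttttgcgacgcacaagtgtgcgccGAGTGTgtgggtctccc
tasp-1: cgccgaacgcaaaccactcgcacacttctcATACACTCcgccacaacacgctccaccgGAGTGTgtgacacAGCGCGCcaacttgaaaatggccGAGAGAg
iff-2: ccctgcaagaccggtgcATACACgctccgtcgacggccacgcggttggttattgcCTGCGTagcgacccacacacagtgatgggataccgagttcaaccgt
his-37: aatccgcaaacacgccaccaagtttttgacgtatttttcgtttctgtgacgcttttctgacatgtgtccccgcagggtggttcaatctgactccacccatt
rpl-35: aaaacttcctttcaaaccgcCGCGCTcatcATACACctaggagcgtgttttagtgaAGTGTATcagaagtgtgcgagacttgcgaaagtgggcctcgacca
hsp-1: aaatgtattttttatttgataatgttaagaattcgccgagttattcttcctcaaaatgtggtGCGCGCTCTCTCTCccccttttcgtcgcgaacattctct
Y17G9B.5: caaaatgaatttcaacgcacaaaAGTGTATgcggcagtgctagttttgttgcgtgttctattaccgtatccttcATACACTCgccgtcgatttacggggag

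The summit sequences of tasp-1 and hsp-1 both held GCGCGC and GAGAGA, and that of his-37 held none of the 10 words. At rpl-3 the run TACACT, which is AGTGTA read on the other strand, stood in 2 places upstream of the summit. In the rpl-35 and Y17G9B.5 sequences, ATACAC and its reverse lay on either side of the summit.

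Shown next are the strongest further members that held GCGCGC, then the word ACGCAG, the word GGGCGG and the word AGACGC, which had the highest ratios of share at summits to share in flanks among the 15 words counted below. They lie at chrV:9344251-9344351 for tos-1 (minus strand), chrV:10897347-10897447 for sec-61.G (minus), chrIII:13643685-13643785 for drr-2 (minus) and chrIV:654874-654974 for rpl-15 (minus).
tos-1: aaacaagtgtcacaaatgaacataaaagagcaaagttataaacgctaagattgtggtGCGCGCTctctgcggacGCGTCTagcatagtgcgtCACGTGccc
sec-61.G: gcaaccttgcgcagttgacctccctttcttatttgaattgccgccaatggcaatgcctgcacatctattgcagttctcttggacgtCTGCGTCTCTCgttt
drr-2: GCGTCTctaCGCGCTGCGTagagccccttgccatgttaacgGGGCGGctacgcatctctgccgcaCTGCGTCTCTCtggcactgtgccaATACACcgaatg
rpl-15: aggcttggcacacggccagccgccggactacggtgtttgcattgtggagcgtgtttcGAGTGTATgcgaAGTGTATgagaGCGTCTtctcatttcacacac

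The sec-61.G and drr-2 sequences hold AGACGC and ACGCAG overlapped as a single run on the opposite strand, and GAGAGA overlaps that run in turn. The tos-1 sequence holds GCGCGC overlapped with the word AGCGCG and has an E-box near its end.

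The 3 strongest peaks stood upstream of cdc-48.1, rpl-3 and tasp-1, and both replicates placed them high. Upstream of cdc-48.1 (WBGene00007352), an AAA ATPase that extracts ubiquitinated proteins, the summit lay 171 bases before the start with a signal of 899, and it ranked 1 in replicate 1 and 1 in replicate 2. The summit 282 bases upstream of rpl-3, a large subunit ribosomal protein, had a signal of 516 and ranked 2 in both replicates. The third, with a signal of 433 and ranks 4 and 3, lay 55 bases before tasp-1, a threonine protease of the taspase family, and 730 bases before K01G5.10 on the other strand. No replicate disagreed on these 3: they were the top of the autosomal gene start peaks in each.

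The next peaks stood at a translation factor, a histone, a ribosomal protein and a chaperone gene. The summit 63 bases upstream of iff-2, the translation factor eIF5A, had a signal of 372 and ranked 9 in both replicates, and it also fell in the window of F54C9.14. The peak 111 bases before the histone gene his-37 had a signal of 354 and ranks of 10 and 15. The peak 453 bases before rpl-35 had a signal of 345 and ranks of 13 and 14, and the one 394 bases before hsp-1, a constitutive HSP70 chaperone, 314 and ranks of 20 and 13. All of these ranked among the 20 strongest regions of each replicate.

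Shared windows were common just below. The rpl-20 peak, with a signal of 306, was nearer to Y17G9B.5 (176 bases) than to rpl-20 (286 bases), and the rpl-15 peak, with 305, lay 348 bases from rpl-15 and 466 bases from K11H12.8. The peak between npp-3, a nuclear pore protein, and top-2, a DNA topoisomerase, had a signal of 263. Between rps-1, a small subunit ribosomal protein, and ifet-1, a repressor of translation, it was 236, and between ska-3, a kinetochore protein, and rps-12 it was 221. Other such pairs were drr-2, an eIF4H-like protein, with set-16, a histone methyltransferase (203), icd-1, a subunit of the nascent chain complex, with vps-32.1, an ESCRT-III protein (201), tag-340 with nhl-2, a TRIM-NHL protein (206), and rpl-12 with lin-54, a DNA-binding subunit of the DREAM complex (198). The summit at sec-61.G, a subunit of the protein channel of the endoplasmic reticulum, had a signal of 214 and shared its window with F32D8.13 on the same strand.

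The other peaks among the 25 strongest lay in the start window of a single gene. They stood at K12H4.5 (signal 285), tos-1 (275), W02G9.3 (236, in an intron of another gene) and daf-19, the RFX factor of ciliated neurons (197). Further ones stood at ntl-11, a CCR4-NOT subunit (195), eelo-2 (192), H41C03.3 (191, at 909 bases) and cox-5A, a subunit of cytochrome c oxidase (191). All 25 ranked among the 77 strongest regions of replicate 2 and the 67 strongest of replicate 1.

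Over all 435 members, signal ran from 54.9 to 899 with a median of 74.2 and quartiles of 63.1 and 100.2. A signal above 100 was reached by 111 members, above 150 by 45 and above 200 by 19, so that a few strong peaks stand over a long, shallow list. Autosomal peaks away from gene starts had a median of 71.6 and a highest value of 410. In the stronger part of all reproducible peaks, split at their median signal, were 221 members (50.8%, 46.1 to 55.5) and 175 of the 385 away (45.5%, 40.6 to 50.4). The odds ratio was 1.24 (0.941 to 1.63), and the difference did not pass Fisher's exact test, two-sided (p = 0.141). With the window narrowed to 500 bases upstream and 250 downstream the odds ratio was 1.48 and did pass (p = 0.007, Fisher's exact test). There, members outside the narrow window counted among the peaks away. Peaks are not independent replicates, and these p-values and intervals cover counting only.

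Each replicate alone supported most members. Of the 435, 271 (62.3%, 57.7 to 66.7) overlapped 1 of the 1030 strongest regions in both replicates, 68 in replicate 1 only, 82 in replicate 2 only and 14 in neither. All 435 overlapped some region among the 30000 candidates of each replicate. Of the peaks away from starts 244 of 385 (63.4%) were strong in both, with an odds ratio of 0.955 (0.719 to 1.27) and p = 0.772 by Fisher's exact test, two-sided. Support followed strength: 100% of the 87 strongest members were strong in both replicates, and 95.4%, 73.6%, 33.3% and 9.20% of the next groups of 87. The reproducible list was ranked on the same 2 replicates pooled, so this trend is partly built in. A weak member can rest mainly on 1 replicate. Summits were placed alike, with a median shift of 6 bases in replicate 1 and 10 bases in replicate 2, and 336 members (77.2%) had shifts of at most 50 bases in both.

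**Figure D1:**
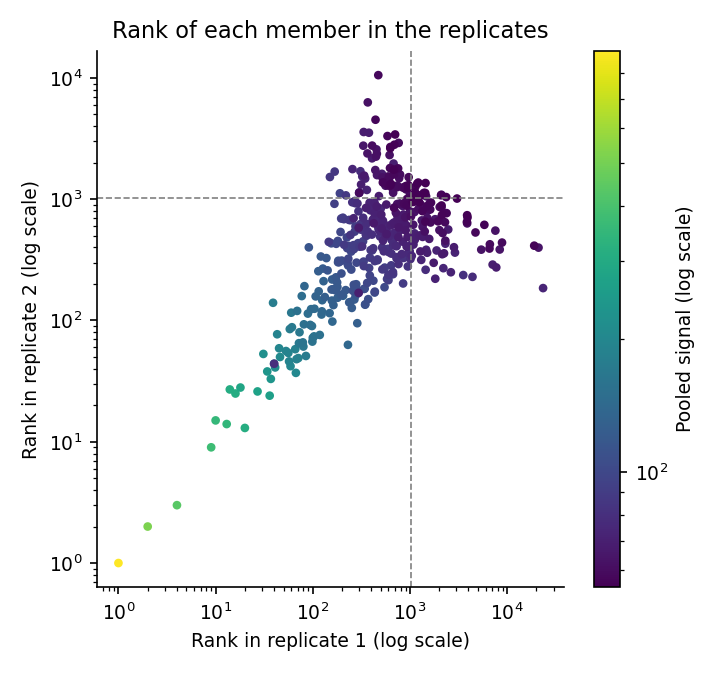
Rank of the overlapping region in replicate 1 (x axis) and replicate 2 (y axis) for each of the 435 members, both on log scales, coloured by pooled signal on a log scale. Dashed lines mark rank 1030. The strongest members lie along the diagonal, while 150 weaker ones pass the line in only 1 replicate.

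The 5 members with the widest gap between replicates show how far that can go. At txt-13 the region ranked 23429 in replicate 1 and 185 in replicate 2. At pcn-1, the DNA polymerase clamp PCNA, the ranks were 21029 and 399, and at ogt-1, the O-GlcNAc transferase, 18991 and 414. The peak between txdc-9 and mrps-17, a mitochondrial ribosomal protein, ranked 8855 and 439. At ippk-1, an inositol phosphate kinase, it was the reverse, with ranks of 472 and 10549. Replicate 2 gave the high rank in 4 of these 5.

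Most summits lay a short way upstream. The distance to the nearest gene start had a median of 219 bases upstream, with quartiles of 394 and 96.5 bases upstream, and 389 members (89.4%) were upstream of that start. The window itself reaches farther upstream than downstream, and 62.4% of its bases lie upstream of the nearest start. Within 300 bases upstream were 234 members (53.8%): 67 in the first 100 bases, 89 in the next 100 and 78 in the 100 beyond. A further 79 members lay more than 500 bases upstream, 23 from the start to 100 bases past it and 23 farther past it. The median distance had no steady trend with strength. It ran from 194 bases upstream in the 87 strongest members over 227, 208 and 225 to 221 in the 87 weakest. Such medians say little about the outer parts of the window. Members within 500 bases upstream and 250 downstream were in the stronger part of the list more often than all members were, so nearer summits tended to be stronger.

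**Figure D2:**
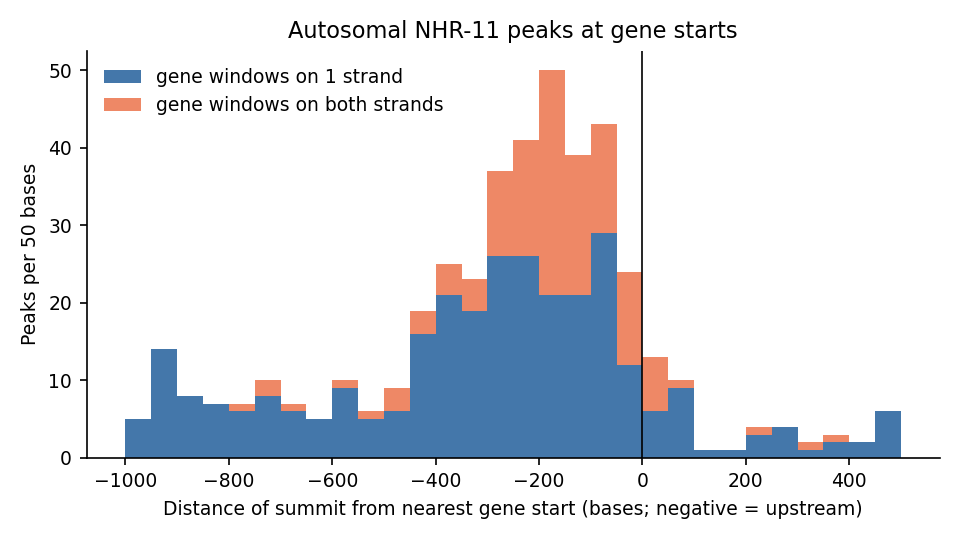
Number of members per 50 bases of distance between the summit and the nearest gene start (x axis, bases, negative values upstream), split by whether gene windows on 1 strand (blue) or on both strands (orange) hold the summit. Of the 435 summits, 389 lie left of the start, and 234 fall within 300 bases of it.

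By annotation, 329 summits (75.6%) were intergenic. Exons of noncoding genes or pseudogenes held 43 (9.89%), introns 27 (6.21%), 5′ UTRs 22, coding sequence 10 and 3′ UTRs 4. These counts were not set against the share of window bases in each class. Small noncoding genes lay within 250 bases of 18 members: a snoRNA for 8, an snRNA for 6, a tRNA for 3 and a miRNA for 1. Among the snRNA genes, sls-2.1 next to H41C03.3 (signal 191), sls-2.4 next to egg-5 (170) and sls-2.8 next to Y75B8A.23 and tim-1 (67.9), encode SL2 RNA, the spliced leader used for downstream genes of operons. Of the 385 peaks away from starts, 8 lay as near to a snoRNA and 4 to an snRNA.

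Summits often lay between 2 genes that point away from each other. The window of a single gene held 294 members, 2 windows held 132, 3 held 9, and none lay in 4 or more. The 141 members in several windows were 32.4% (28.2 to 36.9), where 13.8% of the window bases lie in several windows. Windows of both strands held 130 members (29.9%, 25.8 to 34.3), against 11.7% of window bases, and 117 (26.9%) were upstream of a gene on each strand. The other 11 lay in several windows of a single strand. These 130 had a median signal of 83.9 against 72.1 for the 305 with genes on 1 strand only, a G+C content of 47.4% ± 7.89 (SD) against 45.0% ± 8.42, and were strong in both replicates in 92 cases (70.8%) against 179 (58.7%). The differences between these classes were not tested. The shares of window bases given here were not matched for position, since 62.4% of window bases but 89.4% of members lay upstream of the nearest start.

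Because of these shared windows, the 435 members marked 578 genes, which is 3.35% of the 17242 autosomal protein-coding genes. A window does not say which gene, if any, a peak acts on. Only 7 genes had 2 member peaks and none had 3. At daf-19 the summits lay 91 and 295 bases upstream with signals of 197 and 79.6, and regions of this width overlap there, so that both summits were given the same replicate ranks of 40 and 44. The same held for the pairs at eel-1, mog-4 and hlh-11, and without the weaker peak of each of these 4 pairs, 268 of 431 members (62.2%) were strong in both replicates. The others were eel-1, an E3 ubiquitin ligase (341 and 591 bases upstream), mog-4, a splicing helicase (214 and 417), hlh-11, a basic helix-loop-helix factor (440 and 239), C01G12.7 (966 and 68), F26A3.4 (631 and 87) and F10C5.3 (931 and 112).

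Ribosomal protein genes had by far the highest share of bound starts of the 23 gene groups counted, at 41 of 78 autosomal members (52.6%, 41.6 to 63.3) against the 3.35% of all genes. The groups were chosen with earlier results of these data known, so their shares are descriptions. A gene counts as bound if a summit lies in its window, even where another gene is nearer. The 41 genes were marked by 38 peaks, 8.74% of all members, with a median signal of 103.7, and only 22 of the 41 were the nearest gene to their peak. The strongest were rpl-3, rpl-35 and rpl-20, given above.

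Other genes of protein synthesis and folding had smaller shares. Translation factors were bound at 7 of 40 starts (17.5%), led by iff-2, eef-1G (signal 153, 16 bases upstream) and eef-1A.1 (136, shared with rfc-4), which encode elongation factor subunits. Among aminoacyl-tRNA synthetases 2 of 20 were bound, kars-1 (127) and mars-1 (67.1). Heat shock and chaperonin genes had 9 of 61 (14.8%), led by hsp-1, the chaperonin subunit cct-1 (169, nearer to mig-5) and hsp-110 (167), which shares its peak with the proteasome gene rpn-3. The proteasome and cdc-48 group had 3 of 41, cdc-48.1, rpn-3 and ufd-3 (95.3), and genes of ubiquitin and its conjugation 5 of 24, the strongest at ubq-2 (76.0), ubl-1 (69.8) and the polyubiquitin gene ubq-1 (65.5, 458 bases past the start).

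Other groups with functions common to most cells ranged from above to below the 3.35%. Oxidative phosphorylation genes had 9 of 64 (14.1%), with cox-5A (191), cox-5B (178) and atp-1 (118.9). Splicing genes had 8 of 51 (15.7%), with prp-19 (99.3) and the neighbours rsp-1 and rsp-2, which encode SR proteins and share 1 peak (92.8). Chromatin regulators had 11 of 74 (14.9%), with set-16 (203), lin-35, the worm retinoblastoma protein (139), and set-21 (116), and in each of these 3 another gene was nearer. Vesicle traffic genes had 10 of 95 (10.5%), with sec-61.G (214), vps-32.1 (201) and rab-7 (142, at 790 bases). The vacuolar ATPase had 1 of 18, vha-8 (79.0), which is 5.56% (0.988 to 25.8). The transcription machinery had 2 of 68, taf-4 (71.3) and mdt-8 (55.3), which is 2.94% (0.810 to 10.1). The intervals of both took in the 3.35%, as did those of the aminoacyl-tRNA synthetases (2.79 to 30.1) and the proteasome and CDC-48 group (2.52 to 19.4).

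For genes of particular cell types and large gene families, the interval of the share likewise took in the 3.35% of all genes, or lay below it. Nuclear hormone receptor genes had 10 of 247 (4.05%), the strongest at nhr-10 (105, 288 bases past the start), nhr-138 (87.4) and nhr-142 (80.9). Homeobox genes had 2 of 61, ceh-38 (145) and ceh-20 (55.4), and histone genes 1 of 68, his-37, although its peak was the fifth strongest. Collagens had 3 of 146, col-38 (95.9, shared with rpl-5), col-72 (69.9) and col-55 (66.5). Muscle and actin genes had 2 of 29, act-1 (86.1) and unc-112 (77.2), and neuronal genes 1 of 91, egl-21 (87.2). Germline genes had 2, or 1.98%, the strongest at mex-1 (142). That summit lay 916 bases from mex-1, was the one counted for rab-7 and was nearest to W03C9.5. Chemoreceptor genes had 10 of 1331 (0.751%, 0.409 to 1.38), the strongest at sri-5 (100.1), and F-box genes 3 of 305 (0.984%), the strongest at fbxb-85 (85.0). None of 31 intestinal genes was bound, nor any of 320 genes of C-type lectins and innate immunity, for which the interval reached 1.19%. Of the 578 bound genes, 436 belonged to no list and 166 had only a sequence name. Each list holds chosen genes only, so a low share does not show that other genes of that kind were unbound. The bound genes egg-5 (signal 170), eat-16 (161) and egl-30 (151), for example, were in neither the neuronal nor the germline list.

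**Figure D3:**
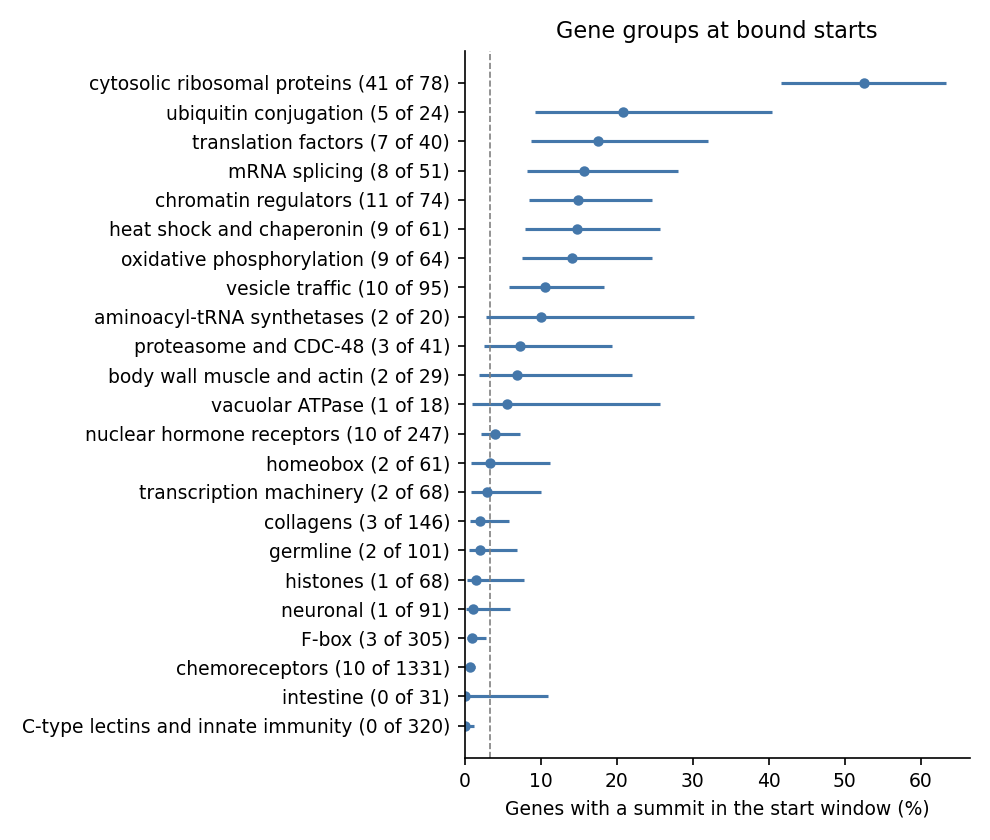
Percent of autosomal genes of each group with a reproducible summit in the start window (x axis), with bound and total genes in brackets and 95% Wilson intervals as bars. The dashed line is the 3.35% of all autosomal protein-coding genes. Ribosomal protein genes stand at 52.6%, and chemoreceptor, F-box and lectin genes lie left of the line.

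The gene of the factor itself had no peak. No region of the reproducible list, the pooled candidates or either replicate had its summit in the window of nhr-11 or inside the gene. At unc-119, mutated in this strain, no reproducible summit lay in the start window, and a single pooled candidate there ranked 28095, whereas 1 reproducible peak lay inside the gene and ranked 859.

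Members were spread over the 5 autosomes. There were 98 on I (56.6% of its peaks), 97 on II (48.3%), 99 on III (58.6%), 63 on IV (47.4%) and 78 on V (54.2%), and the intervals of these shares overlapped. The share of genes bound ran from 2.06% on V to 5.30% on III. The 3 strongest members lay on II and III, while the strongest on I had a signal of 187.

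At the edges of the rule the peaks resembled each other in strength. Nearest inside the upstream edge were ahcy-1 at 997 bases (signal 69.2), col-55 at 996 (66.5) and ech-2 at 995 (85.2), and nearest outside cpg-8 at 1005 (65.9), cec-1 at 1010 (61.5) and mrps-28 at 1015 (71.9). On the downstream side, K10C3.4 at 479 bases (71.3), F21D12.3 at 484 (87.7) and F54F2.6 at 485 (121.8) lay inside, and F59G1.4 at 535 (134.2), scvp-1 at 570 (55.8) and sca-1 at 605 (77.4) outside. The weakest members were dpy-18 (54.92), R06C1.4 (54.92) and F55H12.2 (54.86). Just under the IDR threshold, the strongest gene start regions were coq-1 (54.84), the pair C12D8.21 and col-148 (54.83) and Y62F5A.12 (54.72).

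Summits were rich in G and C. The 50 bases to each side of a summit had a mean G+C content of 45.7% ± 8.33 (SD over 435 members), against 43.7% ± 8.23 for autosomal peaks away and 34.0% for windows placed 219 bases upstream of 16664 unbound genes. In bins of 20 bases the content was highest just past the summit, at 47.2%, and fell to 34.8% in the bin 310 bases upstream and 36.7% in that 310 bases downstream. The pair CG occurred 6.06 times per member window, 4.35 times per window away, 3.25 times 300 bases upstream of member summits and 3.00 times at unbound starts. Content fell with signal, from 49.8% in the 87 strongest members over 48.0%, 45.4% and 44.0% to 41.4% in the 87 weakest. G+C content can itself affect recovery of DNA in library preparation, and its part in the signal was not tested.

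**Figure D4:**
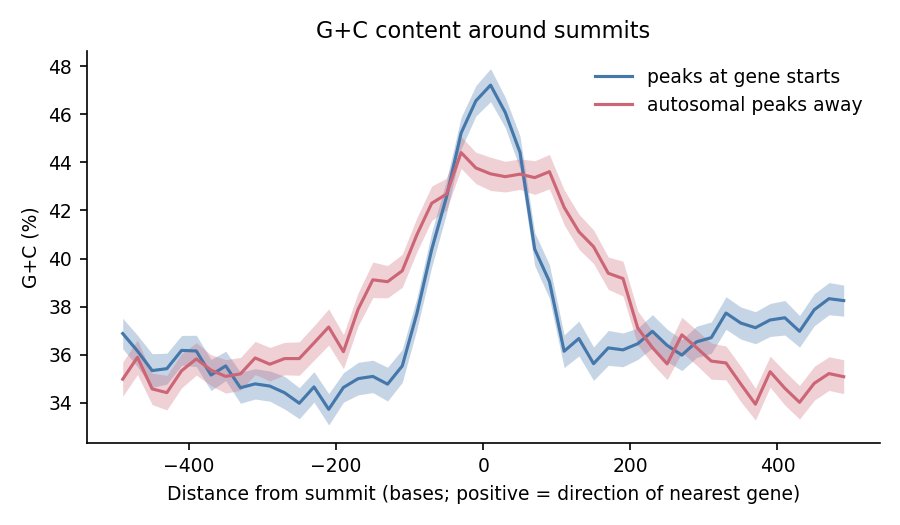
Mean G+C content (y axis, percent) in bins of 20 bases around the summit (x axis, bases, positive in the direction of the nearest gene) for members (blue) and autosomal peaks away (red); bands are 1 standard error over peaks. The member curve rises from 34.8% at 310 bases upstream to 47.2% at the summit, and the curve for peaks away reaches 44.4%.

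Counts of short words were taken over the 50 bases to each side of every summit, on both strands, in windows centred 300 bases upstream of member summits, and in the windows at unbound starts. Of 15 words, 3 (20%) differed in share between members and autosomal peaks away (Fisher's exact test, two-sided, adjusted over the 15 by the Benjamini-Hochberg method). The words were chosen with earlier results of these data known, and matches are descriptions, not sites.

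The CG repeat GCGCGC was more frequent at gene starts than away from them. It occurred in 39 members (8.97%, 6.63 to 12.0) and 10 peaks away (2.60%, 1.42 to 4.71), an odds ratio of 3.69 with an adjusted p of 0.00145 by Fisher's exact test. In the flanks it occurred in 2 windows (0.460%) and at unbound starts in 1.26%. Of the members, 12.4% of the 217 strongest and 5.50% of the other 218 held it, as did 11.5% of those within 300 bases upstream and 5.16% of those farther upstream. The difference from peaks away lost its call without replicate 2, with an odds ratio of 2.63 and an adjusted p of 0.0516, and kept it in the other 5 alternatives, where the odds ratio ran from 2.00 to 4.79.

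The GA repeat GAGAGA was the most common word, and was less frequent at gene starts than away. It occurred in 107 members (24.6%, 20.8 to 28.9) and 135 peaks away (35.1%, 30.5 to 40.0), an odds ratio of 0.604 with an adjusted p of 0.0094 by Fisher's exact test. The flanks held it in 6.44% and unbound starts in 6.51%. Its share was alike in the 217 strongest members (24.9%) and the other 218 (24.3%). In groups of 87 from strongest to weakest it was 25.3%, 21.8%, 32.2%, 27.6% and 16.1%. Without replicate 2 the odds ratio was 0.728 and the call was lost (adjusted p = 0.125, Fisher's exact test). TGTTTA, the core of forkhead factor sites, was rare in members at 11 (2.53%) against 26 peaks away (6.75%), flanks at 10.6% and unbound starts at 9.37%, with an odds ratio of 0.358 and an adjusted p of 0.0199 by Fisher's exact test, a call lost in 5 of the 6 alternatives. In each alternative, all 3 words kept their direction.

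The remaining raised words did not differ between the 2 kinds of peak by this test. ACGCAG was in 85 members (19.5%) and 16.4% away, against 2.07% of flanks and 2.53% of unbound starts. AGACGC was in 63 members (14.5%) and 14.3% away, against 2.53% and 2.30%. They share 4 bases, and 43 members held them overlapped in 1 run, as did 4 flanks. The GC box GGGCGG was in 29 members (6.67%) and 3.64% away (adjusted p = 0.179), against 1.15% of flanks, and the E-box CACGTG in 21 (4.83%) and 8.31% (adjusted p = 0.176), against 2.07%; both p are from Fisher's exact test. At least 1 of these 6 words stood in 233 members (53.6%, 48.9 to 58.2), 50.9% of peaks away, 11.7% of flanks and 13.9% of unbound starts. The other 202 members held none of them. These 6 words were grouped for being raised at these summits, so the contrast with flanks and unbound starts partly restates that choice. AGACGC and ACGCAG had been listed because an earlier analysis of these data found them raised at summits.

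The cores that nuclear receptors bind were not raised. AGGTCA occurred in 12 members (2.76%) and 2.07% of flanks, AAGTCA in 15 (3.45%) and 5.29%, and AGTTCA in 14 (3.22%) and 6.44%, and together they were in 8.97% of members, 8.83% of peaks away, 12.9% of flanks and 13.7% of unbound starts. Words rich in A and T were less frequent at summits than beside them: TTTCAG, the 3′ splice site consensus, in 7.82% against 20.5% of flanks, TATAAA in 4.14% against 10.6%, and TGATAA, the core of GATA sites, in 4.83% against 9.89%. TGACTCA was in 0.920% of members and CTGTAG in 2.30%. That these words are missing from so short a window says nothing of the factor.

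**Figure D5:**
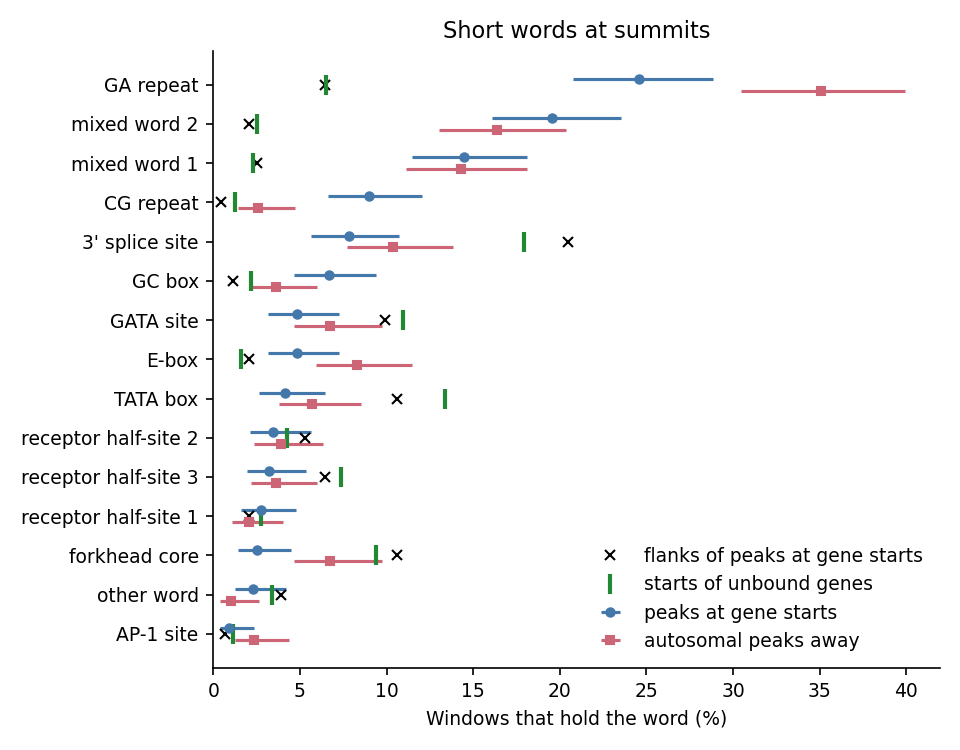
Percent of windows that reach 50 bases to each side and hold each of 15 words (x axis) for members (blue circles) and autosomal peaks away (red squares), with 95% Wilson intervals, and for flanks of members (crosses) and starts of unbound genes (green ticks). Mixed word 1 is AGACGC, mixed word 2 is ACGCAG, and the other word is CTGTAG. Receptor half-site 1 is AGGTCA, half-site 2 is AAGTCA and half-site 3 is AGTTCA. The GA repeat, both mixed words and the CG repeat lie right of their flanks, and the GA and CG repeats part the members from the peaks away.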

How the data were processed

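ChIP-seq peak lists of 2 replicates were analysed, on ce11. Per the deposited descriptions, the authors called 30000 candidate regions in each replicate and in both pooled, against a control alignment, and kept reproducible regions by an irreproducible discovery rate (IDR) threshold. The signal values are the authors' deposited peak signals with no stated scale. Which caller and aligner they ran is not given in the sources used here. Neither the control library nor the ce10 lists were used.

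Summits were joined to protein-coding gene records of Ensembl release 115 (WBcel235, the same build as ce11). A replicate supported a peak if 1 of its 1030 strongest regions overlapped it by at least 1 base. Words were searched 50 bases to each side of summits. Counts were compared with Fisher's exact test, two-sided (scipy 1.17.1, Python 3.11.15), with Benjamini-Hochberg adjustment over 15 words and a threshold of 0.05; 95% Wilson intervals cover counting error only. The code was tested on simulated data. Depth is unknown.

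Members, words and gene lists were chosen with earlier results of these data known, and false symbol matches were removed from the lists after the files were read. Named were the 25 strongest members, the 3 weakest, the 3 nearest each side of each window edge, the 5 with the largest rank gap, up to 3 bound genes per list with the strongest peaks, genes with repeated peaks, nhr-11 and unc-119; 1 gene of the germline list is not reported here. snRNA neighbours and genes with 2 peaks were named after their values were seen. Alternatives covered the window, transcript starts, the stronger part of the list, each replicate alone, the overlap, the flank and the width searched.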

Additional observations from a re-analysis of the deposited data

How the results depend on the processing

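No paired analysis was possible because the study has 1 group. The count of members and of bound genes was 221 and 317 among peaks above the median signal, where only the list is shorter, and lay within 1.5 times the reported count in the other alternatives. The share of autosomal peaks at gene starts was 41.3% with the window of 500 and 250 bases. It was 67.0% with the window of 2000 and 1000 bases and 58.9% with every transcript start. These shares were not set against the bases that each setting covers. The share in several windows was 27.4% and 41.3% with those windows and 42.1% among peaks above the median signal. Leaving out a replicate gave 409 to 415 members, 49.9% to 50.1% of autosomal peaks, 535 to 549 genes, 31.5% to 32.3% in several windows and odds ratios of 1.14 to 1.20 for strength. The odds ratio for replicate support turned to 1.09 (p = 0.558) and 1.03 (p = 0.878) with the narrow and the wide window and to 1.01 (p = 1) with 2 times as many regions per replicate, none of which passed Fisher's exact test; the cause was not tested. For strength it was 1.48 (p = 0.007, Fisher's exact test) with the narrow window. Words that differed numbered 2 without replicate 1 and 0 without replicate 2 by Fisher's exact test, where 6 had an unadjusted p under 0.05. TGTTTA had adjusted p-values of 0.0358 to 0.526 over the alternatives, and CACGTG passed with 100 bases searched to each side (odds ratio 0.514, adjusted p = 0.0384, Fisher's exact test). Unknown depth limits what can be said of single weak peaks.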

Other observations

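The following words were chosen after the printed sequences had been read, so their counts describe these peaks and carry no test. AGCGCG, which shares 5 bases with GCGCGC, stood at 51 members (11.7%, 95% Wilson interval 9.03 to 15.1), 9 autosomal peaks away (2.34%, 1.23 to 4.38), 0.690% of upstream flanks and 1.57% of unbound gene starts. The 12 printed sequences are all among the 25 strongest members, so counts there partly restate the choice: AGCGCG was held by 7 of the 12 printed and 4 of the 13 others. It was in 21.3% of the 75 members among the 87 strongest that were not printed, and in 4.60% of the 87 weakest.

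AGTGTA was held by 6 of the 12 printed members and 2 of the 13 others of the 25 strongest, and ATACAC likewise by 6 and 2. Among all members AGTGTA stood in 6.90% and ATACAC in 7.13%, close to the 7.01% and 7.79% of autosomal peaks away and against 4.14% and 3.45% of upstream flanks. ACACTC stood in 13.8% of members, 9.87% of peaks away and 2.30% of upstream flanks.

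At the 38 peaks of ribosomal protein genes and the other 397 members, words were counted apart. ACACTC was in 12 (31.6%, 19.1 to 47.5) against 12.1% of the others, AGCGCG in 11 (28.9%) against 10.1%, and GAGAGA in 2 (5.26%, 1.46 to 17.3) against 26.4% (22.4 to 31.0). ACACTC and AGCGCG were chosen from printed sequences that include the peaks of rpl-3, rpl-35, rpl-20 and rpl-15. Their shares at ribosomal protein genes therefore partly restate that choice. The ribosomal protein peaks had a median signal of 103.7 against 74.2 for all members, and the counts were not matched for signal. AGCGCG stood in 26.4% of the 87 strongest members and 4.60% of the 87 weakest, and ACACTC in 17.2% and 11.5%. The differences between ribosomal protein peaks and other members were not tested, and neighbouring genes share some of the peaks.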
